A study of Mus musculus with 16 samples.

Results

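The transcripts described here encode the 10 dual-specificity MAP kinase phosphatases of the mouse, given here by symbol: Dusp1, Dusp2, Dusp4, Dusp5, Dusp6, Dusp7, Dusp8, Dusp9, Dusp10 and Dusp16. All 10 are among the 55385 genes quantified, and all 10 passed the filter on low counts that left 17222 genes for testing. RNA was sequenced from primary hippocampal cultures of newborn C57Bl/6N mice. All cultures carried a recombinant adeno-associated virus that expressed a short hairpin RNA from a U6 promoter and GFP from a chicken β-actin promoter. The hairpin was either Control-shRNA or 1 hairpin against Dnmt3a1, a long isoform of the DNA methyltransferase DNMT3A. Each was sampled in baseline (0 h) and after 4 h of bicuculline, a GABA-A receptor blocker that releases synaptic network activity, with 4 libraries in each of the 4 groups.

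MAP kinases (ERK, JNK and p38) are switched on by phosphorylation of a threonine and a tyrosine in their activation loop, and a dual-specificity phosphatase switches them off by removing both phosphates. The family falls into a nuclear inducible group (Dusp1, Dusp2, Dusp4 and Dusp5), a cytoplasmic ERK-selective group (Dusp6, Dusp7 and Dusp9) and a group that prefers JNK and p38 (Dusp8, Dusp10 and Dusp16). Several members are themselves transcribed in response to the signal they end, as part of a negative feedback loop, and Dusp1 is a classic immediate-early gene of neurons.

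Library totals lay between 28912697 and 29586355 estimated counts, and the mitochondrial share between 2.73% and 6.60%. Dnmt3a, the targeted gene, stood at 311, 293, 321 and 324 CPM (TMM-normalized counts scaled to the library total) in the Control-shRNA baseline libraries and at 45.5, 39.4, 45.1 and 48.0 CPM in the Dnmt3a1-shRNA baseline libraries, and its counts sum all isoforms. Its log2 fold change after knockdown was -2.81 (SE 0.06) in baseline and -2.85 (SE 0.06) with bicuculline. Npas4, a neuronal activity-regulated transcription factor, rose with bicuculline by 7.32 (log2, SE 0.26) in Control-shRNA and by 6.63 (SE 0.25) in Dnmt3a1-shRNA cultures. Summed neuron markers (10 genes) lay between 6080 and 7192 TPM, a per-length unit over all libraries, and summed microglia markers (8 genes) between 2.58 and 8.64 TPM, with Cx3cr1, P2ry12 and Itgam under 1 TPM in every library. Of the 8 oligodendrocyte lineage markers, which summed to 81.2 to 188 TPM over all libraries, Sox10 stayed under 1 TPM. Pecam1 and Cldn5 also did, of the 8 fibroblast and vessel markers that summed to 37.0 to 91.6 TPM. Summed astrocyte markers (8 genes) lay between 213 and 508 TPM. Their median log2 fold change after knockdown was 0.40 in baseline and 0.42 with bicuculline, and 1 of the 8 rose in each. Summed GABAergic neuron markers (10 genes) moved with both conditions, lying at 2430 to 2832 TPM in Control-shRNA baseline, 2955 to 4076 TPM with bicuculline, and 1638 to 2238 and 2555 to 3197 TPM in the matching Dnmt3a1-shRNA groups. Of these 10 genes 5 rose with bicuculline in either shRNA group, and 3 in baseline and 1 with bicuculline fell after knockdown. Summed excitatory neuron markers (8 genes) lay at 1684 to 1785 TPM in Control-shRNA baseline and 1281 to 1506 TPM with bicuculline, and at 1471 to 1665 and 1142 to 1461 TPM in the Dnmt3a1-shRNA groups, with 2 genes higher and 1 lower with bicuculline in either. Of the 10 neuron markers 2 rose and 1 fell with bicuculline in either shRNA group, and 1 rose after knockdown in baseline. Of 4 microglia markers tested 1 fell after knockdown in either condition, and 1 rose with bicuculline in Dnmt3a1-shRNA. Of 7 fibroblast and vessel markers tested 1 rose after knockdown in either condition. With bicuculline 2 rose in Control-shRNA and 1 in Dnmt3a1-shRNA. Of 7 oligodendrocyte lineage markers tested 1 fell with bicuculline in either. The rule behind these counts is given with the phosphatases below. Of all genes tested, 10.8% rose and 11.1% fell with bicuculline in Control-shRNA cultures, and 12.6% and 13.2% in Dnmt3a1-shRNA cultures. After knockdown 1.76% of all genes rose and 4.07% fell in baseline, and 2% and 3.9% with bicuculline. The part of these marker lists in the results on the phosphatases was not tested. In these bulk samples fewer cells of a type and less RNA per cell cannot be told apart.

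The upstream sequences of the family were compared for the letters bound by activity-regulated transcription factors, because most members rose together with bicuculline. RefSeq sequence (GRCm38.p6) ending 50 bases after the annotated start was at hand for 8 of the 10 members, Dusp4 and Dusp9 being without an entry, and the 250 bases before the start were searched on both strands. The full cAMP response element TGACGTCA, the site of CREB, was found in Dusp1 (bases -143 to -136, counted from the start) and at -107 to -100 and -63 to -56 in Dusp8, against 1.55% of all 32851 windows. Its shorter form TGACG, which the full element contains, was in Dusp1, Dusp5, Dusp8 and Dusp16, against 17.8% of windows. Dusp5 held a pair of adjoining CArG boxes, the site of serum response factor, at -82 to -73 and -72 to -63, against 1.47% of windows with any. The Egr motif GCGNGGGCG was in Dusp2 and Dusp16, against 4.70% of windows. None of the 8 windows held the letters of AP-1 (TGANTCA), Ets factors (CCGGAA) or the TATA box (TATAAA), which were in 6.75%, 12% and 12.4% of all windows. Neither the cAMP response element nor a CArG box was in Dusp6 and Dusp10, which rose, or in Dusp2 and Dusp7, which fell. Dusp8, with the full element at 2 places, rose by a log2 fold change of 0.49 in Control-shRNA cultures. Whether these letters go with the direction of change was not tested. Such matches describe letters, not bound sites, and their absence says only that the letters are not in this window. A single start was searched per gene. Dusp10 has another annotated protein-coding transcript that starts at chr1:184013302, and the bases before that start were not searched. The stretches shown for Dusp1 and Dusp8 lie within the span of a longer annotated transcript of the same gene. The bases from -200 to -51 are shown for the members with a cAMP response element or CArG box and for Dusp7, which fell and held none, with the cAMP response element and CArG letters in capitals and all other letters, Egr matches included, in lower case:
Dusp1 (chr17:26508523-26508672, minus strand): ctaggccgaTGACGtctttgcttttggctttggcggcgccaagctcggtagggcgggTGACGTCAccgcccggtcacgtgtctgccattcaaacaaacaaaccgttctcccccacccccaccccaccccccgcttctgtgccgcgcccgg
Dusp5 (chr19:53528945-53529094, plus strand): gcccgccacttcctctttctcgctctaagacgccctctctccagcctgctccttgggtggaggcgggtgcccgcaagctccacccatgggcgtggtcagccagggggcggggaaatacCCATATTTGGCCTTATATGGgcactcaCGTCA
Dusp8 (chr7:142095335-142095484, minus strand): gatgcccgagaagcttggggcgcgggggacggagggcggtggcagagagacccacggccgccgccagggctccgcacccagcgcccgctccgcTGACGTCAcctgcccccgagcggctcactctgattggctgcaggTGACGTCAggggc
Dusp16 (chr6:134792679-134792828, minus strand): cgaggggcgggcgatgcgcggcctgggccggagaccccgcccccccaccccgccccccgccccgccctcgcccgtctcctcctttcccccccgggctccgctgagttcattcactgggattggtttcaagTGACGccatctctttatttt
Dusp7 (chr9:106368432-106368581, plus strand): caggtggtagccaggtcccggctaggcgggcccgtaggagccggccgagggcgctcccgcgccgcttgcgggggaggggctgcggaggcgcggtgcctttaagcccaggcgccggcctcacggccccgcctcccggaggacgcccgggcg

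The genes lie on 10 different chromosomes (GRCm38.p6). Dusp1 spans chr17:26505590-26562128 on the minus strand, a length set by long transcripts that reach the opposite-strand gene Ergic1, which stood at 138 to 178 CPM. The other genes annotated across a member, such as the antisense AC137853.2 at Dusp5, stayed at or under 0.41 CPM.

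In unstimulated cultures the family was dominated by a single JNK- and p38-directed member. On the per-length TPM scale Dusp8 stood at 107, 113, 113 and 112 TPM in the Control-shRNA baseline libraries and made up 47.8% ± 2.34 (SD, n = 4) of the summed level of the 10 genes. Dusp7 (36.7 TPM on average) and Dusp4 (31.6 TPM) came next and overlapped each other over libraries. Below them the order Dusp6 (19.96 TPM), Dusp1 (16.4), Dusp5 (9.42), Dusp10 (4.53), Dusp16 (2.21), Dusp2 (1.25) and Dusp9 (0.071 TPM) had no overlap between neighbours. The Dnmt3a1-shRNA baseline libraries gave the same order of means, with Dusp8 at 53.3% ± 3.47 of the sum, but Dusp4, Dusp6 and Dusp1 overlapped their neighbours there, as did Dusp10 and Dusp16. Levels in CPM for each gene and library are drawn in the plot of the 10 phosphatases by group.

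**Figure D1:**
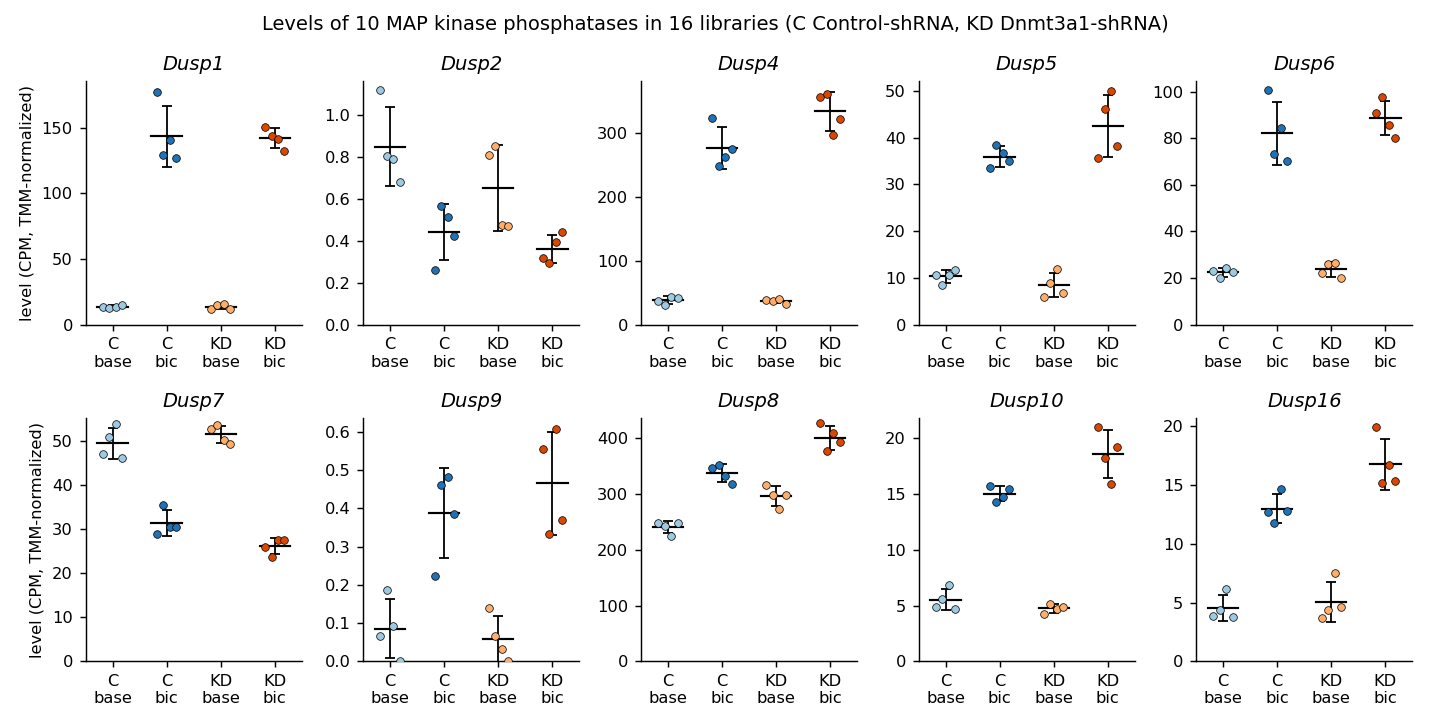
Level of each phosphatase in TMM-normalized CPM (vertical axis, linear and starting at 0, with its own range per gene) in the 16 libraries, as 1 point per library, with the group mean (line) and SD (bar, n = 4); C is Control-shRNA, KD is Dnmt3a1-shRNA, base is baseline and bic is 4 h of bicuculline. In both shRNA groups 8 genes sit higher with bicuculline than in every baseline library of the same shRNA, while Dusp2 and Dusp7 sit lower.

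Whether synaptic activity changes these transcripts was asked first in Control-shRNA cultures. After 4 h of bicuculline 7 of the 10 members rose and 2 fell past the call rule, an adjusted p under 0.05 (edgeR quasi-likelihood test, Benjamini-Hochberg over all tested genes, here and throughout) together with an absolute log2 fold change over 0.5. Of all genes tested, 10.8% rose and 11.1% fell by that rule. All 10 had an adjusted p under 0.05, as did 41.4% of all genes. Dusp9 could enter the test only through its stimulated libraries, and without it 6 of 9 members rose and 2 fell, with a median log2 fold change of 1.52. With it the median of the members was 1.66, against 0.01 over all genes. In each member the 4 bicuculline libraries did not overlap the 4 baseline libraries in CPM, a separation shown by 39.7% of all genes. In TPM Dusp9 did overlap, with its highest baseline library at 0.154 TPM and its lowest stimulated library at 0.148 TPM.

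Among the nuclear inducible phosphatases 3 of 4 rose. Dusp1, which acts on p38 and JNK as well as ERK, stood at 13.2, 12.7, 13.5 and 15.3 CPM in baseline and at 177, 129, 141 and 127 CPM with bicuculline. Every stimulated library was thus far above every baseline library, and the first stimulated library was the highest. The change was 10.5-fold (95% CI 8.87 to 12.5, log2 fold change 3.40, SE 0.12, adjusted p = 6.79e-13), the 83rd highest log2 fold change of all genes tested. Dusp4, a nuclear phosphatase of ERK and JNK, went from 37.8, 30.8, 43.6 and 42.4 CPM to 324, 248, 263 and 275 CPM. This was a 7.18-fold rise (log2 fold change 2.84, SE 0.11, adjusted p = 3.72e-12), again with no overlap. Dusp5, which acts on ERK alone, went from 10.6, 8.49, 10.6 and 11.8 CPM to 33.5, 38.5, 36.8 and 34.9 CPM. The rise was 3.47-fold (log2 fold change 1.80, SE 0.16, adjusted p = 1.19e-07), with no overlap.

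Dusp2, which is best known from lymphocytes, fell. Its estimated counts were 34, 26, 26 and 21 in baseline and 7, 16, 15 and 12 with bicuculline, so that each value rests on few reads. The log2 fold change was -0.93 (SE 0.28, adjusted p = 0.0117). Of its baseline libraries 8 of 8 were above the limit of 0.344 CPM, against 5 of 8 stimulated libraries.

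The cytoplasmic ERK-selective members split. Dusp6, a feedback inhibitor of ERK, went from 23.2, 19.8, 24.3 and 22.6 CPM to 100.5, 73.4, 84.2 and 70.3 CPM, a 3.65-fold rise (log2 fold change 1.87, SE 0.11, adjusted p = 7.98e-10). Dusp7, another cytoplasmic ERK phosphatase, went the other way. It stood at 47.0, 50.7, 53.7 and 46.2 CPM in baseline and at 28.8, 35.5, 30.4 and 30.6 CPM with bicuculline, with no overlap. The log2 fold change was -0.66 (SE 0.07, adjusted p = 1.36e-06). Dusp9 was near the limit of detection, with estimated counts of 2, 6, 3 and 0 in baseline and 6, 13, 14 and 11 with bicuculline. Its log2 fold change of 2.11 had a 95% CI from 0.93 to 3.29 (adjusted p = 0.00539). No baseline library of Dusp9 exceeded the low-count limit and 6 of 8 stimulated libraries did.

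In the group directed at JNK and p38, Dusp10 and Dusp16 rose past the call rule and the abundant Dusp8 stayed just short of it. Dusp10 went from 4.90, 5.62, 6.81 and 4.73 CPM to 15.7, 14.3, 14.8 and 15.4 CPM, a 2.72-fold rise (log2 fold change 1.44, SE 0.11, adjusted p = 1.76e-08). Dusp16 went from 3.85, 4.35, 6.11 and 3.76 CPM to 12.7, 11.8, 14.7 and 12.8 CPM, a 2.86-fold rise (log2 fold change 1.52, SE 0.19, adjusted p = 4.66e-06). Neither gene overlapped between the groups. Dusp8 went from 249, 243, 224 and 247 CPM to 347, 353, 332 and 317 CPM, also without overlap. Its log2 fold change was 0.49 (SE 0.06, adjusted p = 4.05e-06), which DESeq2 size factors, or leaving out Control-shRNA baseline replicate 1 or bicuculline replicate 4, moved to 0.50, past the threshold. Other alternatives moved it down, to 0.26 at the lowest, and 22 of 26 alternatives left it uncalled.

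In Dnmt3a1-shRNA cultures the same comparison gave 7 members higher and 2 lower, against 12.6% and 13.2% of all genes; all 10 had an adjusted p under 0.05, as did 46% of genes, and all 10 separated without overlap, as did 40.4%. Without Dusp9 the counts were 6 higher and 2 lower of 9. No library is shared with the Control-shRNA comparison, although libraries of the same number may come from the same preparation. Dusp1 went from 11.8, 15.2, 15.9 and 12.3 CPM to 151, 144, 141 and 132 CPM, a 10.3-fold rise. Dusp4 went from 38.3, 37.5, 39.7 and 31.7 CPM to 357, 362, 298 and 322 CPM, a 9.10-fold rise. Both again showed stimulated libraries far above all baseline libraries. Dusp5 rose 5.03-fold (log2 fold change 2.33, SE 0.17), Dusp10 rose 3.90-fold (1.96, SE 0.11), Dusp6 rose 3.72-fold (1.89, SE 0.11) and Dusp16 rose 3.31-fold (1.73, SE 0.19). Dusp7 went from 52.6, 53.7, 50.2 and 49.3 CPM to 26.0, 23.8, 27.6 and 27.5 CPM, with a log2 fold change of -0.97 (SE 0.07, adjusted p = 9.90e-09). Dusp8 was higher in every stimulated library at a log2 fold change of 0.44 (SE 0.06, adjusted p = 1.03e-05), again short of the fold threshold. Dusp9 moved from counts of 4, 2, 1 and 0 to 14, 9, 17 and 10, with a log2 fold change of 2.91 (SE 0.60, adjusted p = 0.00061). Dusp2 moved from counts of 23, 26, 15 and 14 to 8, 8, 11 and 12, with a log2 fold change of -0.83 (SE 0.30, adjusted p = 0.0286). DESeq2 put the adjusted p of that change at 0.0596 and edgeR without the low-count filter at 0.072, log2(TPM + 1) put the change at -0.38, short of the fold threshold, and leaving out Dnmt3a1-shRNA baseline replicate 1 or 2 or Dnmt3a1-shRNA bicuculline replicate 1 or 2 put it between 0.0665 and 0.0949.

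**Figure D2:**
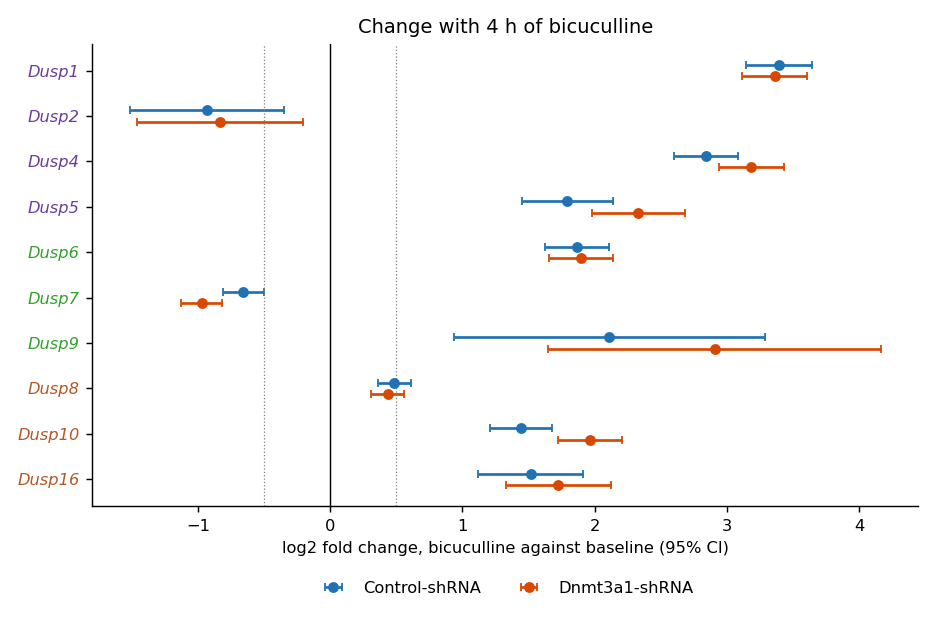
Log2 fold change of each phosphatase (horizontal axis) with 4 h of bicuculline against baseline in Control-shRNA (blue) and Dnmt3a1-shRNA cultures (orange), as points with 95% confidence intervals from edgeR; dotted lines mark an absolute log2 fold change of 0.5, and label colours mark the nuclear inducible (purple), cytoplasmic ERK-selective (green) and JNK- and p38-directed (brown) groups. Dusp1 (3.40 and 3.36) and Dusp4 (2.84 and 3.19) lie farthest to the right, Dusp2 and Dusp7 lie left of 0, and the wide intervals belong to Dusp2 and Dusp9, the genes with few counts.

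These changes altered the make-up of the phosphatase pool. The summed TPM of the 10 genes was 233 ± 14.7 (SD, n = 4) in Control-shRNA baseline and 601 ± 30.9 with bicuculline, and 238 ± 18.3 and 630 ± 26.8 in the Dnmt3a1-shRNA groups. The nuclear inducible members made up 25.1% ± 2.41 of the sum in Control-shRNA baseline and 61.5% ± 2.01 with bicuculline. The share of the JNK- and p38-directed members went from 50.7% ± 2.05 to 24.9% ± 1.60 although their summed TPM was higher (118 ± 4.24 and 149 ± 6.19). The share of the cytoplasmic ERK-selective members went from 24.3% ± 1.65 to 13.6% ± 0.694, and their summed TPM too was higher with bicuculline (56.7 ± 6.05 and 81.6 ± 5.71). No share overlapped between baseline and bicuculline libraries. In the order of levels Dusp4 took the first place with 32.5% ± 1.68 of the sum and was separate from the next gene, Dusp1 (24.2% ± 1.70) and Dusp8 (22.3% ± 1.53) overlapped each other, and Dusp7 came sixth, overlapping Dusp5.

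**Figure D3:**
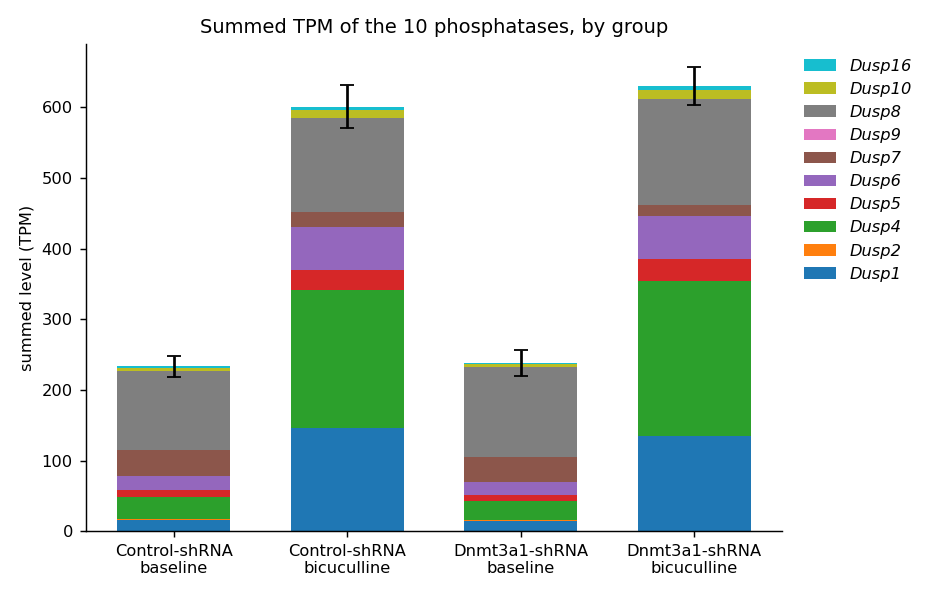
Summed level of the 10 phosphatases in TPM (vertical axis, starting at 0) in the 4 groups, as stacked bars of the group mean of each gene; error bars are the SD of the sum over 4 libraries. The sum is 233 TPM in Control-shRNA baseline and 601 TPM with bicuculline, where the Dusp1 and Dusp4 segments fill most of the added height.

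The counts of members called after Dnmt3a1 knockdown lay near the shares over all genes, and these counts do not set the family apart. The median log2 fold change of the members was -0.03 in baseline, against 0.01 over all genes. With bicuculline it was 0.25 (members from -0.28 to 0.37), against -0.01 over all genes. Without Dusp9 the medians were 0.02 and 0.24. The difference in medians was not tested. In baseline 0 of the 10 members passed the call rule (edgeR), against 1.76% of all genes higher and 4.07% lower, and 1 member had an unadjusted p under 0.05, as did 28.8% of genes. By adjusted p alone 1 member changed, against 16.3% of genes, and that was Dusp8. That count was also 1 with a term for the replicate number in edgeR, against 27.5% of genes. With log2(TPM + 0.1) in limma no member changed, against 10.4% of genes. Dusp8 stood at 249, 243, 224 and 247 CPM in Control-shRNA and at 316, 299, 273 and 299 CPM in Dnmt3a1-shRNA baseline libraries, without overlap, with a log2 fold change of 0.30 (SE 0.06, adjusted p = 0.00210). Over the alternative runs its adjusted p was at most 0.0536. The other 9 members overlapped between the groups, a separation like that of Dusp8 being shown by 19.9% of genes. The 95% intervals of Dusp1 (-0.23 to 0.26), Dusp4 (-0.30 to 0.16), Dusp6 (-0.16 to 0.33), Dusp7 (-0.09 to 0.21) and Dusp10 (-0.47 to 0.03) lay within the fold threshold on both sides. Those of Dusp5 (-0.65 to 0.06), Dusp2 (-0.93 to 0.17), Dusp16 (-0.25 to 0.57) and Dusp9 (-2.18 to 1.10) reached beyond it. DESeq2 and voom also called 0 members, but leaving out Dnmt3a1-shRNA baseline replicate 3, where Dusp5 was at 11.8 CPM against 6.01, 9.02 and 6.83 CPM in the other knockdown libraries, gave 1 call, Dusp5 at a log2 fold change of -0.50 (adjusted p = 0.0297).

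With bicuculline, 0 members again passed the call rule after knockdown (edgeR, and also DESeq2 and voom), against 2% of all genes higher and 3.9% lower, and 4 members had an unadjusted p under 0.05, as did 31.2% of genes. By adjusted p alone 2 members changed, against 17.7% of genes. That count was 1 with log2(TPM + 1) and with log2(TPM + 0.1), against 12% and 12.3% of genes. It was 3 with DESeq2 (22.1% of genes) and with voom (17.3%). With a term for the replicate number in edgeR it was 5, against 30% of genes. Leaving out a library gave 1 to 3, against 13.1% to 18.9% of genes. Dusp8 stood at 347, 353, 332 and 317 CPM in Control-shRNA and at 427, 377, 409 and 393 CPM in Dnmt3a1-shRNA libraries (log2 fold change 0.25, SE 0.06, adjusted p = 0.00730). Dusp7 stood at 28.8, 35.5, 30.4 and 30.6 CPM and at 26.0, 23.8, 27.6 and 27.5 CPM (log2 fold change -0.26, SE 0.07, adjusted p = 0.0238). Neither gene overlapped between the groups. At its highest over the alternative runs the adjusted p was 0.0835 for Dusp8 and 0.0864 for Dusp7. Dusp10 (14.3 to 15.7 against 15.9 to 21.0 CPM) and Dusp16 (11.8 to 14.7 against 15.1 to 19.9 CPM) did not overlap between the groups either, with the knockdown libraries above, at adjusted p = 0.0576 and 0.166. Of all genes 20.9% separated in this way in CPM. On the TPM scale both genes overlapped, Dusp10 at 10.2 to 11.4 against 11.1 to 12.8 TPM and Dusp16 at 4.37 to 6.30 against 5.10 to 7.07 TPM. Dusp1 stood at 144 ± 23.2 CPM in Control-shRNA and 142 ± 7.59 CPM in Dnmt3a1-shRNA libraries, with a log2 difference of -0.02 with a 95% CI from -0.23 to 0.20.

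Whether the response to bicuculline differed between the shRNA groups was tested as an interaction. No gene of all those tested passed an adjusted p under 0.05 in edgeR (0% of genes), and 852 genes (4.95%), 4 of the members among them, had an unadjusted p under 0.05. DESeq2 called 17 genes and voom 0, with no member among them. The 4 members were Dusp10 (difference in log2 fold change 0.52, 95% CI 0.19 to 0.86), Dusp7 (-0.31, CI -0.53 to -0.10), Dusp5 (0.53, CI 0.05 to 1.02) and Dusp4 (0.34, CI 0.02 to 0.66), and the smallest adjusted p of any member was 0.748. Dusp1 (-0.03, CI -0.36 to 0.29), Dusp6 (0.03, CI -0.31 to 0.36) and Dusp8 (-0.05, CI -0.23 to 0.13) had differences whose intervals include 0 and stay below 0.5 in size. The interaction is built from the same libraries as the comparisons above and adds no samples to them.

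**Figure D4:**
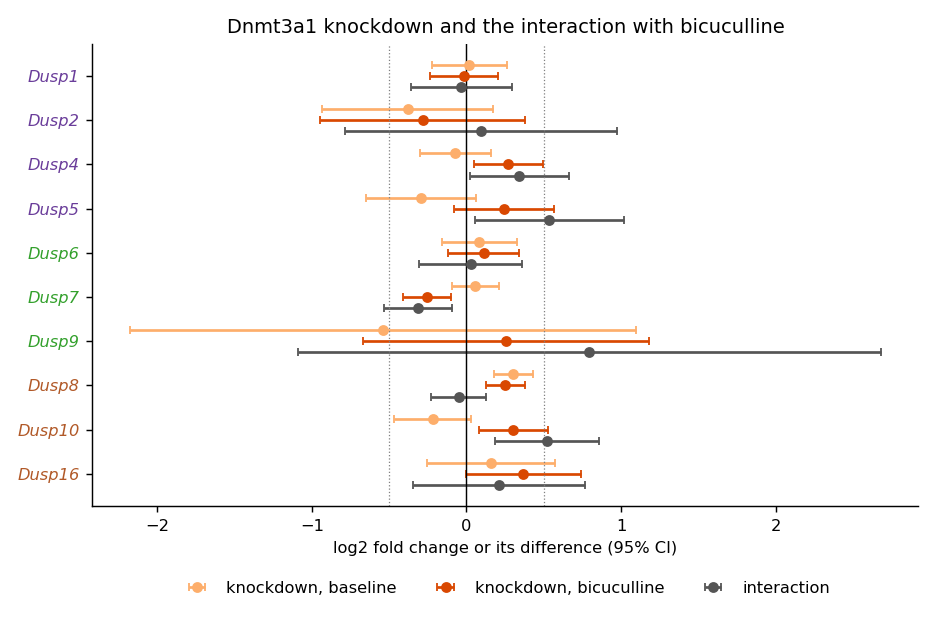
Log2 fold change (horizontal axis) of each phosphatase with Dnmt3a1-shRNA against Control-shRNA in baseline (light orange) and with bicuculline (dark orange), and the difference between the responses to bicuculline (grey), as points with 95% confidence intervals from edgeR; dotted lines mark 0.5. Dusp8 lies right of 0 in both conditions (0.30 and 0.25), and the interaction intervals of Dusp4, Dusp5, Dusp7 and Dusp10 exclude 0 before adjustment for all genes.

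The other genes of the MAP kinase pathway had no common direction with bicuculline. Of 109 genes in 8 lists (kinases of 3 tiers, their target kinases, scaffolds, Ras proteins and regulators, other phosphatases and the atypical dual-specificity phosphatases) 104 were tested, and with bicuculline in Control-shRNA cultures 17 rose (16.3%) and 11 fell (10.6%), with a median log2 fold change of 0.06. In Dnmt3a1-shRNA cultures 18 rose (17.3%) and 12 fell (11.5%). Of all genes 10.8% rose and 11.1% fell in Control-shRNA cultures, and 12.6% and 13.2% in Dnmt3a1-shRNA cultures. Among the 14 MAP kinases the genes of the classical ERK, JNK and p38 kinases were not called, while the atypical kinases Mapk4 (log2 fold change 1.57, SE 0.07) and Mapk6 (1.08, SE 0.11) rose and Mapk7, which encodes ERK5, fell by 0.59 (SE 0.11). Of 7 MAP2 kinases only Map2k3, an activator of p38, rose (1.41, SE 0.16). Of 23 MAP3 kinases tested 3 rose and 3 fell, led by Map3k5, an apical kinase of stress signaling to JNK and p38, at 2.83 (SE 0.19) in Control-shRNA and 3.05 (SE 0.19) in Dnmt3a1-shRNA cultures. Among the 11 kinases activated by MAP kinases Mknk2 (1.59, SE 0.10) and Mapkapk2 (1.15, SE 0.08) rose with 3 others, and Rps6ka5, the nuclear kinase MSK1, fell by 0.76 (SE 0.09) together with Rps6ka4. The scaffolds Ksr1 (-0.65, SE 0.07) and Ksr2 (-0.56, SE 0.10) of the Raf, MEK and ERK complex were lower, among 3 of 9 scaffolds that fell and 0 that rose.

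**Figure D5:**
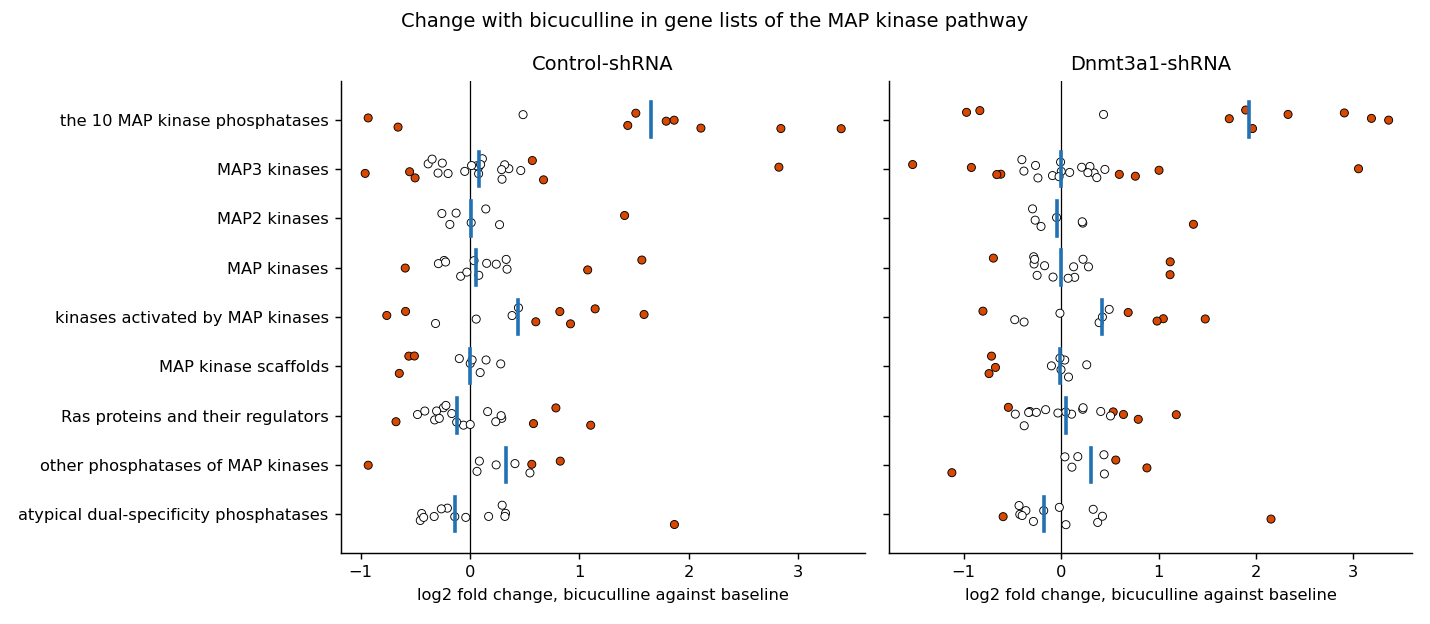
Log2 fold change with bicuculline (horizontal axis) of each tested gene of the MAP kinase pathway lists, as 1 point per gene in Control-shRNA (left) and Dnmt3a1-shRNA cultures (right); filled points passed the call rule, open points did not, and blue bars are list medians. The median of the 10 phosphatases lies at 1.66 and 1.93, and those of the other lists lie between -0.18 and 0.44.

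Other phosphatases that act on MAP kinases gave no common direction. Of 8 such genes Ppm1b (0.83, SE 0.09) and Ppm1d (0.57, SE 0.09), both metal-dependent serine and threonine phosphatases, rose, and Ptprr, a tyrosine phosphatase of ERK and p38, fell by 0.93 (SE 0.09). Of the 13 tested atypical dual-specificity phosphatases, which lack the MAP kinase-binding domain, only Dusp14 rose, from 15.6 ± 1.03 to 56.9 ± 1.87 CPM (log2 fold change 1.87, SE 0.08), and none fell in Control-shRNA cultures, although 3 did when counts were scaled by library size alone. Of 19 Ras genes and regulators 3 rose, with Rras2 (1.10, SE 0.07) and the exchange factor Rasgrf1 (0.79, SE 0.17) in front, and Nras fell by 0.68 (SE 0.07).

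Genes with the most similar pattern to each member over the 16 libraries were sought by the root mean square difference of centred log2 CPM among 13880 genes. Dusp1 was nearest to Errfi1, an inhibitor of the EGF receptor (difference 0.16), followed by Sgk1 and Gpr3. Dusp4 was nearest to 1190002N15Rik and Sgk1, Dusp5 to Slc16a1 and Klf5, and Dusp6 to Snhg1 and Btg1. Dusp10 and Dusp16 shared their nearest gene, Eif2ak3, and also Ets2. Dusp7 was nearest to Thap11 and Dusp8 to Ube2o (difference 0.07). Dusp2 and Dusp9 were too low for this comparison, which describes likeness of pattern only.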

How the data were processed

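Libraries were prepared from total RNA for the BGISeq-500. The study describes the 4 libraries of a group as separate neuronal preparations. Per the labels reads were trimmed with Trim Galore 0.6.4 and pseudoaligned with kallisto to the transcripts of GRCm38.p6. The authors deposited estimated counts summed per gene and, separately, TPM (scaled by transcript length and by library), both for 55385 genes; 54487 gene identifiers matched the annotation with their version.

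Estimated counts were rounded and tested with edgeR 4.0.16 (R 4.3.3): TMM factors, filterByExpr with the groups, and a single quasi-likelihood fit of 4 groups over 16 libraries. Calls needed Benjamini-Hochberg adjusted p below 0.05 with a log2 change beyond 0.5 in size; the interaction used the adjusted p alone. CPM are TMM-normalized. Genes are compared with each other only in TPM. Between 28912697 and 29586355 counts per library, low genes (Dusp2, Dusp9) are limited by counting. The code was tested on simulated data. Named genes of the pathway are, per list and direction, at most the 2 called genes with the largest change and at least 1 CPM. The members, lists and thresholds were chosen with earlier results of these data known.

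Libraries with the same replicate number deviated together in bicuculline against baseline with Control-shRNA (correlation 0.142 to 0.221 over genes) and between the shRNAs in baseline (0.204 to 0.355). The numbers were therefore taken to pair these groups, although the labels give only the number. The correlations of the comparisons not taken to pair, given below, overlap these ranges, so the split between them is not sharp. The main fit held no replicate block in any comparison, so its SE, intervals and adjusted p leave the pairing out, also in the comparisons taken to pair. With the block in edgeR, 10 members had an adjusted p under 0.05 with bicuculline in Control-shRNA cultures, against 50.8% of genes. For knockdown in baseline 1 member had, against 27.5% of genes. Alternatives were voom with limma 3.58.1, DESeq2 1.42.0, other scalings and filters, limma on log2(TPM + 1) and log2(TPM + 0.1), a replicate block, and leaving out each library.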

Additional observations from a re-analysis of the deposited data

How the results depend on the processing

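The 7 rises and 2 falls with bicuculline kept their direction in every alternative run that tested the gene. At its lowest the log2 fold change of Dusp9 was 0.25 in Control-shRNA and 0.33 in Dnmt3a1-shRNA cultures, short of the fold threshold. The number of members called in that comparison ranged from 7 to 10 in Control-shRNA and from 7 to 10 in Dnmt3a1-shRNA cultures, and from 9 to 10 and 8 to 9 when a library was left out. For knockdown in baseline the count of 0 became 1 with no fold threshold and ranged from 0 to 1 when a library was left out; with bicuculline it became 2 with no fold threshold. The summed level in Dnmt3a1-shRNA cultures was 2.64 times the baseline level in TPM and 2.43 times in CPM. Scaling by library size alone shifted the median of all genes with bicuculline to -0.15 (log2) and gave 1365 genes higher and 3032 lower in place of 1854 and 1911, but still 7 members higher and 2 lower; in the 8 pathway lists it gave 13 higher and 17 lower in place of 17 and 11. The knockdown values near 0 had no stable sign. In baseline Dusp1 went from 0.018 to -0.0558 with library sizes only, -0.13 with log2(TPM + 1) and -0.14 with log2(TPM + 0.1), Dusp7 from 0.058 to -0.025, -0.057 and -0.059, Dusp6 from 0.083 to -0.051 and -0.055 on the TPM scales, and Dusp16 from 0.16 to -0.0482 and -0.089. The interaction of Dusp1 went from -0.033 to 0.019 and 0.027 on the TPM scales. With a library left out, the baseline values ranged from -0.060 to 0.086 for Dusp1, -1.30 to 0.13 for Dusp9 and -0.10 to 0.34 for Dusp16, the value of Dusp1 with bicuculline from -0.062 to 0.10, and the interaction from -0.10 to 0.082 for Dusp1, -0.083 to 0.25 for Dusp2 and -0.045 to 0.14 for Dusp6; the cause was not tested. A filter of at least 10 counts in every library removed Dusp2 and Dusp9 from the test. The replicate block changed no call of a member. In the comparisons whose numbers were not taken to pair (correlations from 0.0667 to 0.388 between the shRNAs with bicuculline and from 0.0631 to 0.337 within Dnmt3a1-shRNA) 1 of the 4 correlations in each lay under 0.1, and 2 of 4 libraries did not correlate best with their own number, as 1 of 4 did not in the comparisons taken to pair. After knockdown with bicuculline 5 in place of 2 members passed the adjusted p alone with the block, as did 5158 in place of 3046 of all genes. For the interaction the block called 3 genes, none of them a member, and the smallest adjusted p of a member was 0.320.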

Other observations

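Around the phosphatases, a few kinases and Ras genes differed after Dnmt3a1 knockdown itself. Of the 104 tested genes of the pathway lists 3 were higher (2.88%) and 4 lower (3.85%) in baseline, against 1.76% and 4.07% of all genes. With bicuculline 6 were higher and 6 lower (5.77% each), against 2% and 3.9% of all genes. Map3k12, which encodes the dual leucine zipper kinase upstream of JNK in neurons, had a mean of 134 ± 6.15 CPM (SD, n = 4) in Control-shRNA and 73.8 ± 6.52 CPM in Dnmt3a1-shRNA baseline cultures, a log2 difference of -0.86 (SE 0.07), and with bicuculline at 105 ± 5.61 and 39.0 ± 2.12 CPM, a log2 fold change of -1.43 (SE 0.07). Its interaction was called by DESeq2 and by edgeR with the replicate block, and not by edgeR without it. Mknk2, a kinase that phosphorylates eIF4E, was higher after knockdown in both conditions (0.74 and 0.62, SE 0.10 each), as was Nras (0.59 and 0.72, SE 0.07 each). The Ras activator Rasgrp1 was lower in both (-1.01 and -0.74, SE 0.22 each), as was the atypical phosphatase Dusp28 (-0.58 and -0.70, SE 0.13 and 0.14).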
